A study of Mus musculus with 2 samples.

Results

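The Ly6 genes described here are 6 mouse genes of the lymphocyte antigen 6 family, Ly6a, Ly6c1, Ly6c2, Ly6e, Ly6g and Ly6i. They were taken by symbol from the gene tables, 6 of 55536 annotated genes, by a rule that uses no measured value. The cells were C57BL/6J macrophages derived from bone marrow, that is, precursors of mouse marrow that had matured in a dish, and the labels name no transgene or mutation. They had received a stimulus at 100 ng/mL for 300 min, called Lipid A in one label field and lipoprotein A, a protein, in the others. Polyadenylated RNA was sequenced in 1 group of 2 libraries, biological replicates 1 and 2. Each library has a biosample record of its own and the donor record is shared, so the spread between them may be technical in part. Sex and age were not collected. No unstimulated group was analysed, so the values are levels after the stimulus and no value is a response to it.

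Ly6 proteins are small, disulfide-rich surface proteins held in the outer leaflet of the plasma membrane by a glycosylphosphatidylinositol (GPI) anchor in place of a membrane-spanning segment. In mouse immunology they serve mainly as markers. Ly6a is the stem cell antigen Sca-1, which marks haematopoietic stem cells and is induced by interferons in many cells. The Ly6c1 and Ly6c2 pair encodes the Ly6C antigen, which separates classical from patrolling monocytes, and Ly6g encodes the neutrophil antigen Ly6G. Ly6e, also known as Sca-2, is an interferon-stimulated gene whose product limits the entry of coronaviruses and serves as a syncytin receptor in the placenta. Ly6i is a less studied member.

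The cells carried macrophage transcripts and high interferon-stimulated transcripts. Expected counts summed to 38028201 over genes in replicate 1 and 63649100 in replicate 2. All 10 macrophage markers reached 1 TPM (transcripts scaled to length and to a fixed library total) in both libraries, with summed levels of 16084 TPM in replicate 1 and 22445 in replicate 2, led by Lyz2, Cd68 and Cd14. All 24 interferon-stimulated genes of the list reached 100 TPM in both, led by Cxcl10, Rsad2 and Ifit2 in mean TPM. Markers of other cells are given beside the members they touch. With cells measured in bulk, fewer cells of a type and less RNA per cell cannot be told apart.

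Ly6c1 and Ly6c2 are near-identical, which bears on every value of the Ly6C pair. Their coding sequences differed at 9 of 396 aligned positions, an identity of 97.7%. The first 150 bases from the start codon are shown because they hold 6 of these differences, which are printed in capitals. The sequences are those of Ly6c2-201 and Ly6c1-201 in GENCODE M21, both encoded on the minus strand of chromosome 15 in GRCm38.

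Ly6c2: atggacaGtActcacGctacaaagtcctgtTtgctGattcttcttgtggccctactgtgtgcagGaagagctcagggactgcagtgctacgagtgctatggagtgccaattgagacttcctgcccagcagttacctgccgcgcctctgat
Ly6c1: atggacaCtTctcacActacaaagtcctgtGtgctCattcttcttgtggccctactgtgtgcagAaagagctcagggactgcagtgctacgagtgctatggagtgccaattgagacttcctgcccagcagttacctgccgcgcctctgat

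The other members were less alike. Ly6a shared 86.4% of aligned coding bases with Ly6i, 83.2% with Ly6g, 82.0% with Ly6c1 and 81.7% with Ly6c2. Ly6e stood apart, with identities from 50.1% to 53.1% to the other members. The share of a gene's 31-base words that also occur in transcripts of another gene shows how far short reads can be divided among paralogs. It was 46.8% for Ly6c1, 31.9% for Ly6a, 23.8% for Ly6c2, 19.2% for Ly6i, 9.55% for Ly6g and 0.422% for Ly6e. With 75-base words it was 19.0% for Ly6c1, 9.46% for Ly6c2, 6.33% for Ly6a, 0.519% for Ly6i and 0 for Ly6e and Ly6g. The largest overlap among members was that of the Ly6C pair, whose 581 common 31-base words made up 33.0% of the words of Ly6c1 and 21.4% of those of Ly6c2. Words were pooled over all annotated transcripts of a gene. For Ly6c2 these include Ly6c2-202, a retained-intron transcript of 2680 bases with 0.84% of the gene's TPM in replicate 1 and 0.23% in replicate 2. Its leading transcript Ly6c2-201 has 822 bases, so the Ly6c2 shares can understate the sharing of its spliced transcripts. Reads of Ly6a, Ly6c1, Ly6c2 and Ly6i can therefore be shared between genes, and those of Ly6e much less. In the authors' estimates little of this was left uncertain. Their posterior SD of the count was 0 in both libraries for Ly6a, Ly6i and Ly6e. For Ly6c1 and Ly6c2 it was 0.29 in replicate 1 and 0.27 in replicate 2.

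Ly6e made up most of the transcripts of the 6 genes in these macrophages. Ly6a and Ly6c2 were moderate, Ly6i was close to the detection threshold, and Ly6c1 and Ly6g had no reads assigned in the gene tables. A threshold of 1 TPM in both libraries was passed by 4 of the 6 members, where 42.4% of the 22015 nuclear protein-coding genes passed it, and 1 member reached 100 TPM in both. Summed over the members the level reached 704 TPM in replicate 1, with 90.5% of it in Ly6e, and 1638 TPM in replicate 2, with 96.3% in Ly6e. The order Ly6e, Ly6a, Ly6c2, Ly6i, with Ly6c1 and Ly6g at 0, was found in both libraries. For Ly6a and Ly6c2, neighbours in this order, the intervals the authors deposited overlapped in replicate 1. They were 31.6 to 37.7 TPM for Ly6a and 26.5 to 32.7 TPM for Ly6c2. Overlap alone does not settle whether these levels differed.

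**Figure D1:**
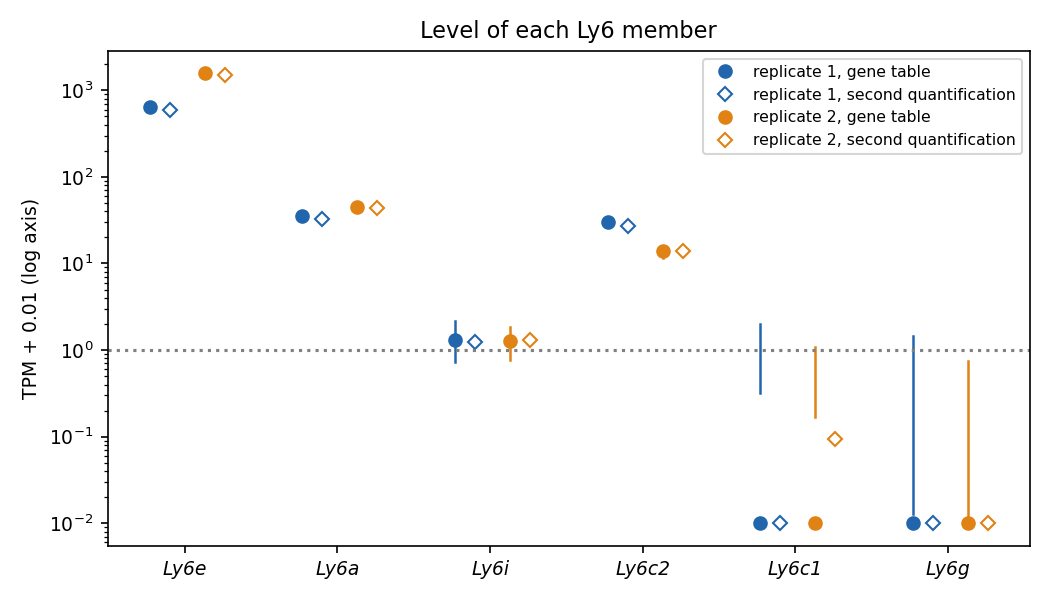
Level of each Ly6 member in TPM plus 0.01 on a log axis, for replicate 1 (blue) and replicate 2 (orange), from the gene tables (circles) and from the second quantification (diamonds). Bars are the authors' intervals, which belong to a posterior estimate and need not contain the circle, and the dotted line is 1 TPM; Ly6e stands at 637 TPM in replicate 1 and 1578 in replicate 2, and Ly6c1 and Ly6g stand at 0 in the gene tables.

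Ly6e (ENSMUSG00000022587.14, GRCm38 chr15:74955051-74959905, plus strand) had 10990 expected counts in replicate 1 and 53843 in replicate 2. These gave levels of 637 TPM in replicate 1 and 1578 in replicate 2, a mean of 1107 ± 665 TPM (SD, n = 2). That placed it at rank 214 in replicate 1 and rank 71 in replicate 2 among the nuclear protein-coding genes. The gene was high in both libraries and far higher in replicate 2. Among the interferon-stimulated genes, whose medians were 780 TPM in replicate 1 and 871 in replicate 2, Ly6e lay below the median in replicate 1 and above it in replicate 2. The levels of Ly6a, Ly6c2 and Ly6i lay below that of the lowest gene of that list, Oas2 at 120 TPM in replicate 1 and 154 in replicate 2. The second quantification gave 588 TPM in replicate 1 and 1518 in replicate 2 for Ly6e.

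Ly6a (ENSMUSG00000075602.10, chr15:74994877-74998031, minus strand) had 559 counts in replicate 1 and 1242 in replicate 2, or 35.1 TPM in replicate 1 and 45.5 in replicate 2. The mean was 40.3 ± 7.30 TPM (SD, n = 2), and the second quantification gave 32.9 TPM in replicate 1 and 44.1 in replicate 2. The stem cell antigen was moderate in both libraries and somewhat higher in replicate 2, where the authors' interval, 42.3 to 47.6 TPM, lay above that of replicate 1. Ly6e stood 18.1-fold above it in replicate 1 and 34.7-fold above it in replicate 2. Markers of the stem and progenitor cells in which Sca-1 is used for sorting were mostly low. Kit, the stem cell factor receptor, was at 0.24 TPM in replicate 1 and 0.51 in replicate 2, and Cd34, a progenitor surface protein, at 0.13 TPM in replicate 1 and 0.08 in replicate 2. Of the 9 stem and progenitor genes, 2 reached 1 TPM in both libraries, Slamf1 and Procr. Slamf1 was at 16.2 TPM in replicate 1 and 40.7 in replicate 2, and Procr at 24.8 TPM in replicate 1 and 28.1 in replicate 2. They made up most of the summed level of all 9, which was 42.3 TPM in replicate 1 and 70.1 in replicate 2. Mecom was at 0 in both.

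Ly6c2 (ENSMUSG00000022584.14, chr15:75108158-75111970, minus strand) had 404 counts in replicate 1 and 247 in replicate 2, or 30.1 TPM in replicate 1 and 13.8 in replicate 2. The mean was 22.0 ± 11.6 TPM (SD, n = 2), and the second quantification gave 26.8 TPM in replicate 1 and 13.8 in replicate 2. It was higher in replicate 1, unlike Ly6e and Ly6a. Its partner Ly6c1 (ENSMUSG00000079018.10, chr15:75044018-75048830, minus strand) had 0 counts in both libraries. A count of 0 allows up to 3 counts, or 0.345 TPM in replicate 1 and 0.194 in replicate 2, which like all counting intervals and limits here covers counting error only. The authors' intervals for Ly6c1 were wider, 0.306 to 1.98 TPM in replicate 1 and 0.158 to 1.07 TPM in replicate 2, and reached above 1 TPM in both libraries. All Ly6C counts in the gene tables were therefore assigned to Ly6c2, and the authors' posterior SD of its count was 0.29 in replicate 1 and 0.27 in replicate 2, the same as for Ly6c1. In the second quantification Ly6c1 had 0 counts in replicate 1 and 2.02 in replicate 2, and Ly6c2 held 100% in replicate 1 and 99.4% in replicate 2 of the pair's TPM.

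The monocyte and endothelial markers that accompany the Ly6C antigen elsewhere were measured beside it. Of 10 monocyte genes 7 reached 1 TPM in both libraries, with summed levels of 1135 TPM in replicate 1 and 835 in replicate 2. Most of each sum was Ms4a4c, at 961 TPM in replicate 1 and 705 in replicate 2. Vcan was next in mean TPM, at 68.7 TPM in replicate 1 and 73.5 in replicate 2. By scaled counts Ccr2, Plac8 and Chil3 were higher in replicate 1 by 1.5-fold or more, as Ly6c2 was. Of the 9 genes with enough counts 0 were higher in replicate 2 by that fold. Ccr2 was at 2.57 TPM in replicate 1 and 0.45 in replicate 2. None of the 10 was at 0 in both libraries, and their part in the Ly6c2 level was not tested. Of 8 endothelial genes, a cell type in which Ly6c1 is known to be expressed, 4 reached 1 TPM in both, led by Kdr at 20.0 TPM in replicate 1 and 67.6 in replicate 2, with a summed level of 27.1 TPM in replicate 1 and 81.5 in replicate 2 and Cldn5 at 0 in both.

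Ly6g (ENSMUSG00000022582.4, chr15:75155240-75159126, plus strand) had 0 counts in both libraries and in both quantifications, which allows up to 0.321 TPM in replicate 1 and 0.183 in replicate 2. The authors' intervals reached further, to 1.43 TPM in replicate 1 and 0.736 TPM in replicate 2. No counts were thus assigned to the neutrophil antigen, while some other neutrophil transcripts were present. Of 15 neutrophil genes 7 reached 1 TPM in both libraries, with summed levels of 647 TPM in replicate 1 and 204 in replicate 2, and none was at 0 in both. The calcium-binding protein gene S100a9 was at 316 TPM in replicate 1 and 10.2 in replicate 2, its partner S100a8 at 127 TPM in replicate 1 and 5.63 in replicate 2, the cytokine receptor gene Csf3r at 81.7 TPM in replicate 1 and 153 in replicate 2, and the granule enzyme gene Mpo at 0.66 TPM in replicate 1 and 0.09 in replicate 2. The S100a8 and S100a9 pair was thus much higher in replicate 1, the library in which Ly6c2 was also higher, and Ly6g was at 0 in it. The part of neutrophil RNA in the Ly6 values was not tested.

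Ly6i (ENSMUSG00000022586.11, chr15:74979534-74983430, minus strand) had 16 counts in replicate 1 and 22 in replicate 2, or 1.30 TPM in replicate 1 and 1.26 in replicate 2. The mean was 1.28 ± 0.0283 TPM (SD, n = 2), and no difference between the libraries was detectable at this depth. The authors' intervals, 0.709 to 2.14 TPM in replicate 1 and 0.755 to 1.85 TPM in replicate 2, both reached below the threshold, so its detection call is not firm.

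Along chromosome 15 the members were not neighbours of a uniformly transcribed stretch. From Ly6e to Ly6f the annotation holds 18 genes in 317 kb, of which 12 are not members and 7 are pseudogenes. None of the 12 reached 1 TPM in both libraries, and 8 had 0 counts in both, among them the protein-coding genes Ly6f and BC025446. The transcribed pseudogene I830127L07Rik, between Ly6c2 and Ly6g, had 33 counts in replicate 1 and 8 in replicate 2, or 2.92 TPM in replicate 1 and 0.40 in replicate 2. It shares 41 of the 31-base words of Ly6c2 and 55 of those of Ly6a. The authors' posterior SD of the Ly6a count was 0 in both libraries. For the Ly6c2 count it was 0.29 in replicate 1 and 0.27 in replicate 2. By that measure little uncertainty over shared reads was left in either count. No annotated gene overlapped any of the 6 members on either strand.

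**Figure D2:**
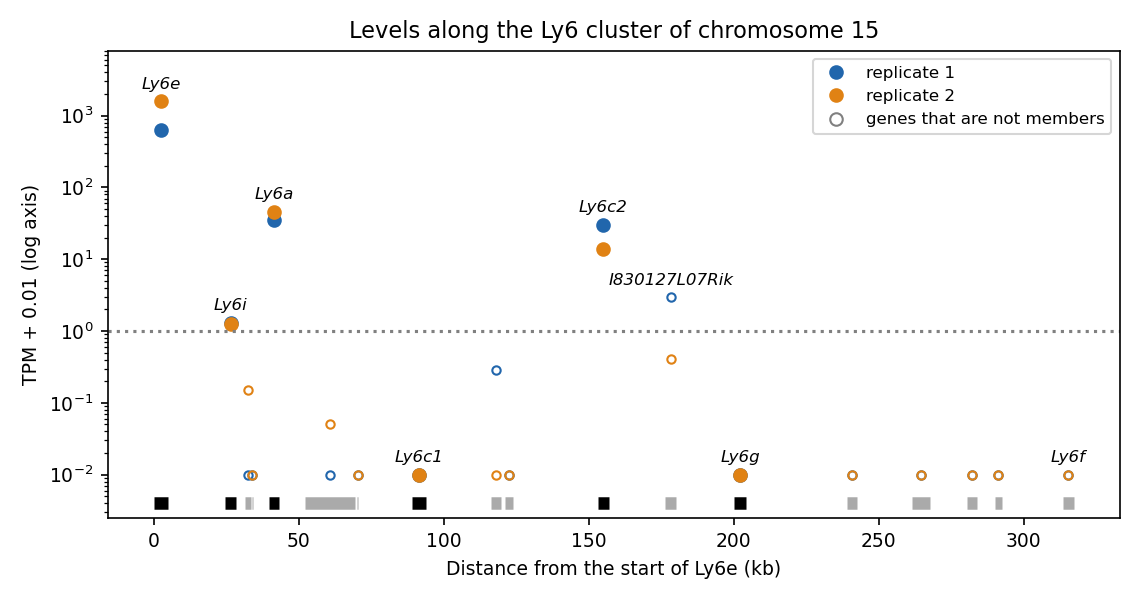
Level of each annotated gene of the Ly6 cluster in TPM plus 0.01 (log axis) against its distance from the start of Ly6e in kb, for replicate 1 (blue) and replicate 2 (orange). Filled points are the 6 members, open points the 12 other genes, bars along the bottom the gene bodies (black for members) and the dotted line 1 TPM; the 4 members at 1 TPM are interspersed with genes at or near 0.

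The libraries differed in the members' counts in both directions. Counts were scaled by TMM and compared as replicate 1 over replicate 2, with no test, since 1 library stands on each side. Of the 6 members 4 had enough counts, and 3 of these differed by 1.5-fold or more, where 35.8% of 12226 genes did, so a difference of this size was common. The ratio of Ly6e was the most unequal of the members, with a log2 ratio of -1.73 (95% exact binomial interval -1.76 to -1.70), or 3.32-fold higher in replicate 2. Only 0.646% of genes had a lower ratio. In the interferon-stimulated list the median log2 ratio was -0.25, with 2 of 24 genes higher in replicate 1 and 3 higher in replicate 2 by 1.5-fold, against a median of 0.01 over all 12226 genes. Of these 12226 genes, 2335 were higher in replicate 1 and 2039 higher in replicate 2 by 1.5-fold.

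Ly6c2 went the other way, with a log2 ratio of 1.26 (interval 1.04 to 1.51), or 2.40-fold higher in replicate 1, at percentile 96.1 of all genes. In the monocyte list 3 of 9 genes with enough counts were higher in replicate 1 and 0 higher in replicate 2, and in the neutrophil list 6 of 9 were higher in replicate 1 and 1 higher in replicate 2. In the macrophage list 0 of 10 were higher in replicate 1 and 4 higher in replicate 2. Over all 12226 genes, 2335 were higher in replicate 1 and 2039 higher in replicate 2. Ly6a had a log2 ratio of -0.59 (interval -0.74 to -0.45), which is just past the 1.5-fold threshold, a size of 0.58, and was not past it by TPM, library totals or after subtraction of the median ratio of genes of like GC content. Ly6i had a log2 ratio of 0.09 (interval -0.92 to 1.10), which spans both directions at this depth.

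**Figure D3:**
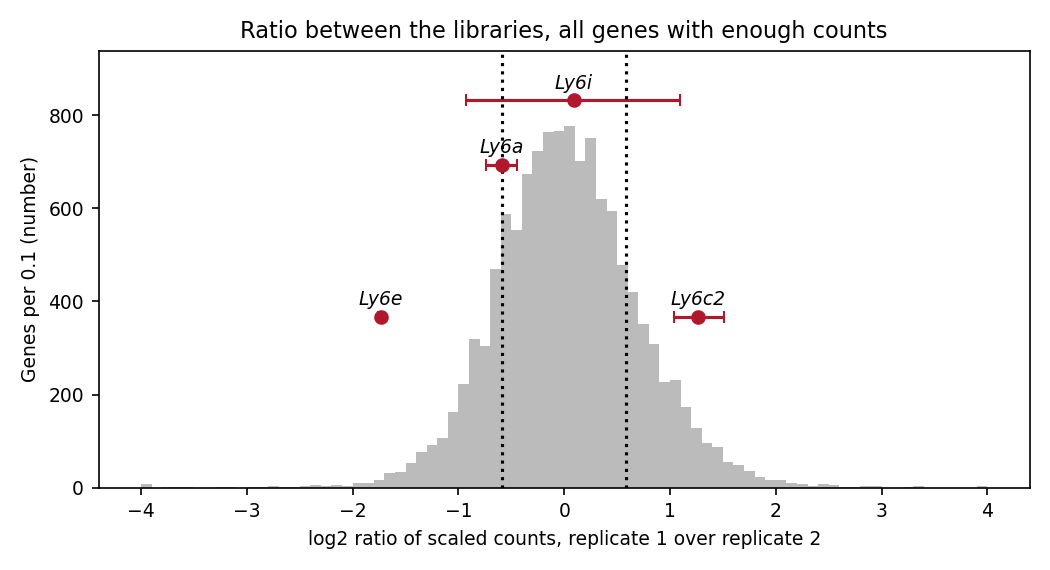
Histogram of log2 ratios between the libraries (TMM-scaled counts, replicate 1 divided by replicate 2) for the 12226 genes with enough counts in bins of 0.1, with ratios beyond 4 in either direction counted in the outermost bins and dotted lines at 1.5-fold. Red points are the 4 members with enough counts, with 95% exact binomial intervals and a height chosen for legibility only; Ly6e lies at -1.73 and Ly6c2 at 1.26, on opposite flanks.

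The median log2 ratio of genes of like GC content was -0.19 for Ly6e, -0.09 for Ly6a and Ly6c2 and -0.19 for Ly6i. A group median does not bound the value of a single gene, and the part of GC content in the members' ratios was not tested. On the TPM scale the log2 ratio was -1.31 for Ly6e and 1.13 for Ly6c2. Both were smaller in size than by counts. The measures differ in library scaling, since TMM was applied to the counts only. With library totals the count ratio was -1.55 for Ly6e and 1.44 for Ly6c2. They also differ in the effective length the authors assigned. It was 689 bases in replicate 1 and 829 in replicate 2 for Ly6e, and 535 bases in replicate 1 and 436 in replicate 2 for Ly6c2. In tables of this layout the effective length of a gene is a mean over its transcripts, weighted by their shares.

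The transcript makeup of Ly6e and Ly6c2 differed between the libraries, and that of Ly6a hardly did. Of the 16 annotated Ly6e transcripts 12 had counts in both libraries. The coding transcript Ly6e-215 has 1122 bases, 4 exons and a complete coding sequence, and longer coding transcripts such as Ly6e-201, of 2281 bases, are annotated. Ly6e-215 held 56.4% of the gene's TPM in replicate 1 and 80.6% in replicate 2, at 359 TPM in replicate 1 and 1271 in replicate 2. Ly6e-213, whose coding sequence is incomplete in the annotation and whose annotated end lies 671 bases short of that of Ly6e-215, held 36.2% in replicate 1 and 14.2% in replicate 2, at 230 TPM in replicate 1 and 224 in replicate 2. In this table the difference in Ly6e TPM between the libraries therefore lay mostly in Ly6e-215. The second quantification gave 55.5% in replicate 1 and 77.2% in replicate 2 for Ly6e-215 and 34.8% in replicate 1 and 17.0% in replicate 2 for Ly6e-213, whose level there was 204 TPM in replicate 1 and 258 in replicate 2.

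Ly6c2-201, of 822 bases, held 87.7% of the gene's TPM in replicate 1 and 44.4% in replicate 2, at 26.4 TPM in replicate 1 and 6.12 in replicate 2. The authors' intervals of its level, 22.0 to 28.1 TPM in replicate 1 and 4.51 to 7.44 TPM in replicate 2, were apart. Ly6c2-204, of 538 bases with an annotated end 282 bases short of that of Ly6c2-201 and a coding sequence of the same length, held 2.44% in replicate 1 and 43.2% in replicate 2, at 0.73 TPM in replicate 1 and 5.95 in replicate 2. Its intervals, 0.0309 to 2.97 TPM in replicate 1 and 2.74 to 8.54 TPM in replicate 2, overlapped, and it rested on 4.84 counts in replicate 1 and 71.8 in replicate 2. The second quantification gave 3.84% in replicate 1 and 51.0% in replicate 2 for this transcript. The Ly6c2 molecules of replicate 2 were thus assigned about equally to a long and a short form, and those of replicate 1 mostly to the long form.

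Among the 6 transcripts of Ly6a, Ly6a-204 held 61.7% of the TPM in replicate 1 and 66.0% in replicate 2, and Ly6a-203 held 23.2% in replicate 1 and 28.2% in replicate 2. Both are coding transcripts with the same coding length. Ly6i-202 held 72.3% in replicate 1 and 90.6% in replicate 2 of the Ly6i level, on counts too low for a comparison. None of the 7 transcripts of Ly6c1 and the 2 of Ly6g had counts in the table these shares come from.

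**Figure D4:**
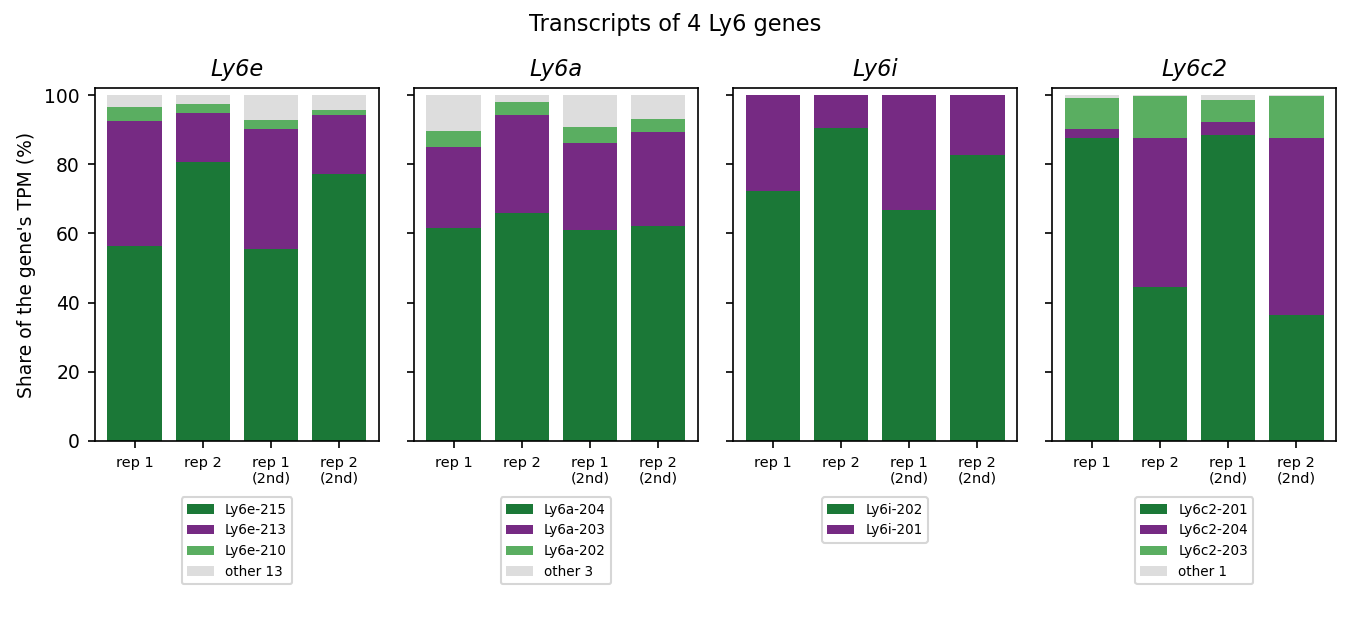
Share of each gene's TPM in its transcripts, in percent, for replicate 1 and replicate 2 from the first transcript table and, marked 2nd, from the second quantification. Colours mark the leading transcripts of each gene and grey the rest. Ly6c2-204 (purple) holds 2.44% in replicate 1, on 4.84 counts, and 43.2% in replicate 2. Both quantifications, made from the same 2 libraries, show this difference, and the authors' intervals of its level overlapped.

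Promoter sequences from RefSeq (GRCm38.p6), from 250 bases before to 50 after the gene start, matched 3 of the 6 members, not Ly6a, Ly6e or Ly6i. They are shown because Ly6c2 and Ly6c1, near-identical in their coding sequence, differ in the motif letters they hold here. Capitals mark matches to the motifs searched on both strands, which were the PU box GAGGAAGT, the TATA box TATAAA, the CCAAT box CCAAT, the interferon-gamma activated site TTCNNNGAA and the core of the interferon-stimulated response element GAAANNGAAA. No match overlapped another. PU boxes are bound by PU.1, the master regulator of the myeloid lineage.

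Ly6c2 promoter, chr15:75111922-75112221, minus strand: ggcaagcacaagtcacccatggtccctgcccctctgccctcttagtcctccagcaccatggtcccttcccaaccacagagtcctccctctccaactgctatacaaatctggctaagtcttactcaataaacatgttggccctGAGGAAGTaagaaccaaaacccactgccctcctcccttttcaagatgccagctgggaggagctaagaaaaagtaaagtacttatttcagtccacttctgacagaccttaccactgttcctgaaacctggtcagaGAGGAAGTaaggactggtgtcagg
Ly6c1 promoter, chr15:75048788-75049087, minus strand: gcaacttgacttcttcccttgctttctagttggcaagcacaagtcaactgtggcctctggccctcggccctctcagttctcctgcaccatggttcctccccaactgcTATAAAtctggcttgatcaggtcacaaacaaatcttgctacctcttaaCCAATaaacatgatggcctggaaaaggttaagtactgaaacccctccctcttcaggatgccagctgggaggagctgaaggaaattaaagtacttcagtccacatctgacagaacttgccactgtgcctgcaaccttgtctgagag
Ly6g promoter, chr15:75155011-75155310, plus strand: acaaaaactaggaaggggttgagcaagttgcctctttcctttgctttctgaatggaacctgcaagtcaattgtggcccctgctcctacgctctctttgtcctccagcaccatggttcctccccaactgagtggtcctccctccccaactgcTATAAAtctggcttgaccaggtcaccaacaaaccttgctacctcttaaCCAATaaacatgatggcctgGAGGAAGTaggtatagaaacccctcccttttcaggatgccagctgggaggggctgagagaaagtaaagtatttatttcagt

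The Ly6c2 window was identical to that of Ly6c1 at 62.3% of aligned columns, gaps included, and to that of Ly6g at 48.8%, and Ly6c1 and Ly6g were identical at 62.5%. Gap columns lower these shares, so their size is not comparable with that of the coding identities. Counted from the gene start as 0, the Ly6c2 window held PU box letters at -108 and at 26, and Ly6c1 held none. Ly6g held them at -31. The bases around the Ly6c2 match at -108 and around the Ly6g match are alike in the printed windows, so they may stand at a matching place. Positions from the gene start are therefore not comparable between the genes. The TATA box letters stood at -143 in Ly6c1 and -99 in Ly6g, and the CCAAT letters at -95 in Ly6c1 and -51 in Ly6g, with neither in the Ly6c2 window. Among 27025 promoters of the same length, the PU box letters were found in 3.29%, TATAAA in 14.1% and CCAAT in 37.8%. The interferon-gamma activated site occurred in 8.37% and the response element core in 3.52% of all promoters and in none of the 3 windows. These matches describe letters in a window and not bound sites.

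Of the wider family, few members were detected beside Ly6e, Ly6a and Ly6c2. Of 32 further Ly6 and uPAR family genes 30 were found in the tables, 2 reached 1 TPM in both libraries and 19 had 0 counts in both. Plaur, the urokinase receptor of migrating macrophages, was at 145 TPM in replicate 1 and 68.9 in replicate 2, with a log2 ratio of 0.98. Cd59a, which blocks the complement membrane attack complex, was at 4.80 TPM in replicate 1 and 4.31 in replicate 2. Plaur was therefore second to Ly6e in this family in both libraries, and the direction of its ratio was that of Ly6c2.

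The genes that build and attach the GPI anchor were broadly expressed. Of 26 such genes found, 23 reached 1 TPM in both libraries and none was at 0 in both, with medians of 11.9 TPM in replicate 1 and 7.11 in replicate 2. The highest by mean TPM over both libraries were Pgap2, which remodels the lipid of finished anchors, at 93.9 TPM in replicate 1 and 103 in replicate 2, and the dolichol-phosphate mannose synthase subunits Dpm2 at 49.6 TPM in replicate 1 and 40.1 in replicate 2 and Dpm1 at 28.3 TPM in replicate 1 and 55.3 in replicate 2. All 26 had enough counts, and 5 were higher in replicate 1 and 3 higher in replicate 2 by 1.5-fold, with a median log2 ratio of 0.17. Over all 12226 genes with enough counts, 2335 were higher in replicate 1 and 2039 higher in replicate 2.

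Markers of lymphocytes, some of which also carry Ly6 antigens, were mostly near 0. Of 10 T and NK cell genes 2 reached 1 TPM in both libraries, Cd4 at 44.8 TPM in replicate 1 and 79.9 in replicate 2 and Lck at 37.3 TPM in replicate 1 and 57.2 in replicate 2, the summed level was 82.8 TPM in replicate 1 and 137 in replicate 2, and Cd3g was at 0 in both. Of the 8 genes of the B and plasma cell list, which also holds the plasmacytoid dendritic cell gene Siglech, 0 reached 1 TPM in both, with a summed level of 3.43 TPM in replicate 1 and 0.95 in replicate 2 and Mzb1 at 0 in both. The parts of these cells in the Ly6 values were not tested.

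The protein-coding genes whose levels were most like those of a member were found by Euclidean distance of log2(TPM + 1) over the 2 libraries. They were Pabpc1 (distance 0.0866) and Ube2d3 (0.191) for Ly6e, Slc38a1 (0.00611) and Gtf3c6 (0.0207) for Ly6a, Zfp12 (0.0126) and Skp2 (0.0317) for Ly6i, and Thoc2 (0.0344) and Bmi1 (0.0469) for Ly6c2. With 2 libraries this likeness says only that the levels were close.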

How the data were processed

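Polyadenylated RNA of 1 group of 2 libraries was analysed. The expected counts deposited by the authors are estimates for each gene and transcript, with shared reads divided and no normalization. The deposited TPM and FPKM are scaled to effective length and library size, and the deposited percent column is a transcript's share of the gene's TPM, per the file headers. Posterior SDs and TPM intervals are the authors', with a level that the files do not state. The build is mm10 (GRCm38) with GENCODE M21, per the deposited notes. The first tables have the RSEM column layout and the second quantification that of kallisto; the aligner, the versions of the quantifiers and any use of strand: not given in the sources used here. Rows that are not genes held 0.132% of counts in replicate 1 and 0.0883% in replicate 2 and were left out.

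Expected counts, rounded to integers, were filtered by filterByExpr and scaled by TMM in edgeR 4.0.16 (R 4.3.3), and log2 ratios taken with a prior count of 2. DESeq2 1.42.0 size factors were an alternative. The ratio calculation was tested on simulated data. Promoters and transcripts were aligned with Biopython 1.88. With 1 group and 1 library on each side of the ratio, no test was made, which departs from the usual count test. Named genes are all members, family genes at 1 TPM in both libraries, the 3 highest genes of each other list, S100a8, S100a9, Mpo, Kit and Cd34; 1 gene that this rule takes is not reported here. Members and lists were chosen with earlier results of these data known. Motifs, the other genes of the cluster and the transcripts described were chosen after their values were seen, and the GC subtraction was added then. The choice of Oas2, Mecom, Cd3g, Cldn5, Mzb1, Siglech, Ccr2, Plac8 and Chil3 was also made after their values were seen.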

Additional observations from a re-analysis of the deposited data

How the results depend on the processing

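No paired analysis was possible because the series has 1 group. The count of members at 1 TPM in both libraries was 4 under each scaling and quantification and with either library left out, and 3 by FPKM or at 5 TPM, where Ly6i was lost. The count past 1.5-fold was 3 (Ly6a, Ly6c2 and Ly6e), and 2 without Ly6a under library totals, log2(TPM + 1), log2(FPKM + 1), GC subtraction or a 2-fold limit. Over 9 alternatives the log2 ratios of Ly6e, Ly6a and Ly6c2 did not change direction. The ranges, replicate 1 over replicate 2, were -1.80 to -1.28 for Ly6e, -0.66 to -0.33 for Ly6a and 1.07 to 1.44 for Ly6c2. For Ly6i the range was 0.001 to 0.28, and its counting interval, -0.92 to 1.10, spans both directions. The share of Ly6c2 in the TPM of the Ly6C pair moved to 99.7% in the second quantification, with 2.02 counts of Ly6c1 in replicate 2. Depth limits Ly6i, with 16 and 22 counts, and the values of 0 of Ly6c1 and Ly6g.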
